A study of Mus musculus with 2 samples.

Results

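The glucose transporters and glycolysis enzymes examined here are 10 genes: the transporter genes Slc2a1, Slc2a2 and Slc2a3, the hexokinase genes Hk1 and Hk2, and Pfkl, Aldoa, Pgk1, Eno1 and Ldha of the later steps. The genes were chosen with earlier results of these data known. Their probe sets were taken from the array by annotation alone, as every probe set assigned to exactly 1 gene symbol among these names. This gave 23 of the 45101 probe sets on the array and 9 of the 10 genes. No probe set assigned to Eno1 alone was present in the annotation used here, so Eno1 (an enolase gene) was not analysed. The embryos were collected whole at 8.5 days post coitum (dpc). The matUPD18 embryos carried a uniparental disomy of the whole of chromosome 18 derived from the mother, and the patUPD18 embryos carried the corresponding disomy derived from the father. Each genotype was measured on 1 Affymetrix mouse array. No embryo with 1 copy of the chromosome from each parent was among the arrays analysed, and the labels do not say how many embryos were combined for an array. With 1 array per genotype there was no replicate check, no test between the genotypes was possible, and the number of arrays limits the precision of every value below.

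Cells take up glucose through facilitative transporters of the Slc2a family. Slc2a1 (GLUT1) and Slc2a3 (GLUT3) encode high-affinity transporters of embryonic tissues. Slc2a2 encodes GLUT2, a low-affinity transporter best known from hepatocytes, pancreatic beta cells and absorptive epithelia. Inside the cell, glycolysis converts glucose to pyruvate in the cytosol and yields ATP without oxygen, and lactate dehydrogenase turns pyruvate into lactate. Early postimplantation mouse embryos are known for a high rate of glucose use and lactate release. Several genes of the pathway are textbook targets of the hypoxia-inducible factors.

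The values are MAS5 signals, a brightness in arbitrary units for each probe set (a group of short probes against a transcript) on each array. Log2 ratios are matUPD18 over patUPD18, so a positive ratio means a higher signal in matUPD18. A floor was set at the 40th percentile of each array (84.2 for matUPD18, 82.5 for patUPD18), and lower signals were replaced by it before a ratio was taken. A probe set was called measurable where at least 1 of its signals reached the 60th percentile of its array, 190.1 for matUPD18 or 184.9 for patUPD18. Of the 23 probe sets, 21 were measurable, and all 9 genes had at least 1 of them. Where a gene had several probe sets, the brightest stood for the gene, and the others are given beside it. Signals of different genes come from different probes and are not set against each other. Where the signals of a list were summed, the sum was compared between the arrays only, and the brightest genes weigh most in it.

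Most of the pathway read alike on the arrays. Of the 9 genes, 7 lay within 2-fold, Slc2a2 passed 2-fold as higher in matUPD18, and Hk1 passed it as lower in matUPD18. The background over all 10484 measurable genes was 2.70% past 2-fold with matUPD18 higher and 1.78% with patUPD18 higher. Because the genes were chosen with earlier results known, their counts are only described beside it. By probe set, 1 of the 21 measurable ones passed 2-fold in each direction, against 3.27% higher in matUPD18 and 1.95% higher in patUPD18 of the 16696 measurable probe sets with 1 gene. The median log2 ratio of the 9 genes was -0.07, beside -0.04 for all measurable genes. The sign of the members' median turned with quantile normalization (0.09) and loess scaling (0.06), so it carries no direction.

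**Figure D1:**
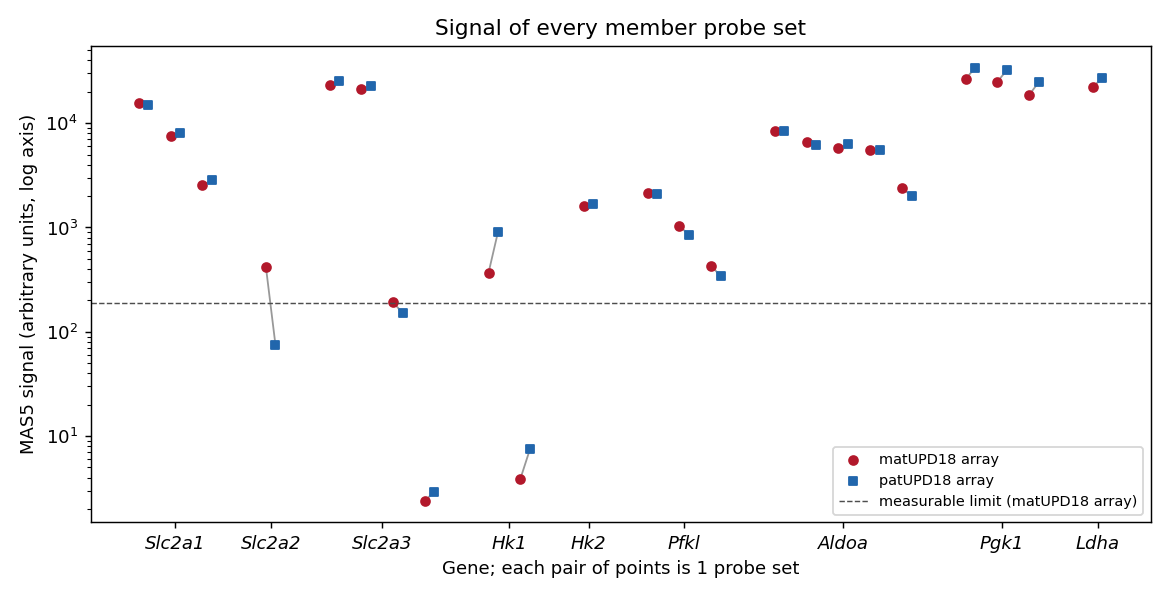
MAS5 signal (log axis) of all 23 probe sets of the 9 genes, with the matUPD18 array as circles on the left of each pair and the patUPD18 array as squares on the right. The line joins the 2 signals of a probe set and the dashed line is the measurable limit of the matUPD18 array, 190.1. Slc2a2 and Hk1 are the genes whose measurable pairs are visibly tilted, in opposite directions.

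Promoter sequences are given for the genes that passed 2-fold and for comparison genes that did not. RefSeq promoter windows (GRCm38.p6) were found for 8 of the 9 measured genes, with 12 windows in all; Slc2a3 had no entry. The 250 bases before each start were searched on both strands for ACGTG and GCGTG, the core letters recognised by hypoxia-inducible factors. At least 1 match was present in 9 of the 12 windows and in 38.6% of the 32851 windows of all genes. The letters GGGCGG, a GC box, were present on either strand in 6 of the 12 windows and in 32.7% of all windows. These motifs were chosen with the expression values known, and a match describes letters only.

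The windows below are those of the genes past 2-fold, Slc2a2 and Hk1 (which has 2 annotated starts), with Slc2a1 and the first start of Ldha for comparison. Capitals mark every ACGTG or GCGTG on either strand (read as CACGT or CACGC on the opposite strand). The Slc2a2 window lies at chr3:28697653-28697902 on the plus strand. The Hk1 windows lie on the minus strand, the upstream start at chr10:62379909-62380158 and the downstream start at chr10:62340422-62340671. The Slc2a1 window lies at chr4:119108495-119108744 and the Ldha window at chr7:46845554-46845803, both on the plus strand.
Slc2a2: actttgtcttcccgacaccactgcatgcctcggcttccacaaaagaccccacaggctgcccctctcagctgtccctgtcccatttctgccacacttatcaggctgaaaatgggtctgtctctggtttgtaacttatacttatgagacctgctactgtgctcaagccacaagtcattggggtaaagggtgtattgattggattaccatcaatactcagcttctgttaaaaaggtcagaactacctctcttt
Hk1, upstream start: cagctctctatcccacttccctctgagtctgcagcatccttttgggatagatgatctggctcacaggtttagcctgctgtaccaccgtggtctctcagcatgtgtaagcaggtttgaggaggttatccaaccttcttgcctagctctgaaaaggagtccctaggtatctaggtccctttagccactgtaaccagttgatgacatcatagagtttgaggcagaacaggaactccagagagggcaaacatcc
Hk1, downstream start: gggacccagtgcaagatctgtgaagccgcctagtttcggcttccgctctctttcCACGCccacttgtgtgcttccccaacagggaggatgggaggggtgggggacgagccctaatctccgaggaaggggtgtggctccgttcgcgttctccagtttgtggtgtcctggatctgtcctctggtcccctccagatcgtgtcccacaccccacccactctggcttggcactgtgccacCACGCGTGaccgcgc
Slc2a1: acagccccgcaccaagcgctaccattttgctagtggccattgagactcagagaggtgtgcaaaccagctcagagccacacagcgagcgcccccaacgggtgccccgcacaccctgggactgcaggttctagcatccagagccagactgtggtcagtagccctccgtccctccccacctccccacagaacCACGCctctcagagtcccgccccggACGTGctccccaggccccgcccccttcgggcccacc
Ldha: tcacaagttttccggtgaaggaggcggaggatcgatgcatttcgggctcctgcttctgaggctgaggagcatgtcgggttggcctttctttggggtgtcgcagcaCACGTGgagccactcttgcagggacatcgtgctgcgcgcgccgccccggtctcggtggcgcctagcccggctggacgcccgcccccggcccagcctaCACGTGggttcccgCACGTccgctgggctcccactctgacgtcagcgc
The Slc2a2 window and the upstream Hk1 window held none of these cores and no GC box. The downstream Hk1 window held 3 cores and no GC box. The Slc2a1 window held 2 cores and 2 GC boxes, and the Ldha window held 5 cores and 2 GC boxes, with overlapping matches on the 2 strands counted separately here and for Hk1. Of the other windows, Pgk1 and Hk2 held 2 cores each, Pfkl held 1, and Aldoa held 1 in each of its 2 downstream windows, which overlap, and none in its upstream window. The second Ldha window held 1 core and no GC box.

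Among the transporters, Slc2a2 was the gene that differed. Its single probe set had a signal of 415.9 in matUPD18 and of 74.6 in patUPD18. The patUPD18 signal lay under that array's floor, so Slc2a2 differed by at least 5.04-fold, higher in matUPD18, with a floored log2 ratio of 2.33, or 1.17 with the floor at the 60th percentile. In RNA of whole embryos, fewer cells of a type and less RNA per cell cannot be told apart. Slc2a2 is known to be made in visceral endoderm, the absorptive epithelium of the yolk sac, and markers of that tissue differed in the same direction. Of 16 listed visceral endoderm markers 15 had a probe set. These markers were chosen with earlier results of these data known, so they are no independent check on Slc2a2. By their brightest probe sets all 15 read higher in matUPD18. Of them 12 did so by at least 2-fold, against 2.70% of all measurable genes. A dimmer measurable probe set of Hnf4a ran the other way, with a log2 ratio of -0.24. The 2 dimmer measurable probe sets of Lrp2 gave -0.03 and 0.25, and that of Apom gave only 0.37. The summed signal of the 15 markers was 37296 in matUPD18 and 6266 in patUPD18, with a median log2 ratio of 2.73, and none was at 0. Among them Ttr (log2 ratio 3.15) and Spink1 (2.52) lie on chromosome 18, the disomic chromosome. Apoa1, an apolipoprotein gene, was the furthest at 1366 in matUPD18 and 43.5 in patUPD18. The transcription factor gene Foxa2 was the nearest to even, at 504.6 in matUPD18 and 450.8 in patUPD18. The part of these cells in the Slc2a2 difference was not tested.

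The other transporters were close to even. Slc2a1 read 15621 in matUPD18 and 15081 in patUPD18 by its brightest probe set, a log2 ratio of 0.05. Its other probe sets read 7570 in matUPD18 against 8121 in patUPD18, and 2551 in matUPD18 against 2839 in patUPD18, so the 3 probe sets did not share a direction and spanned 0.20 on the log2 scale. Slc2a3 had 4 probe sets. The brightest had 23440 in matUPD18 and 25601 in patUPD18, a log2 ratio of -0.13, and the next read 21345 in matUPD18 and 22917 in patUPD18. Another, just above the measurable limit, read 192.2 in matUPD18 and 150.4 in patUPD18. The last read 2.40 in matUPD18 and 2.92 in patUPD18, under the floor of both arrays. Quantile normalization (0.22) and loess scaling (0.19) turned the sign of the Slc2a3 ratio. The ratio of the brightest Slc2a1 probe set stayed above 0 under each scaling tried, but its other probe sets were below 0 as deposited.

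Hexokinases add the phosphate that traps glucose in the cell, and Hk1 and Hk2 read differently here. Hk1, the housekeeping hexokinase gene and the main one of red cells, read 368.4 in matUPD18 and 914.3 in patUPD18. It was thus 2.48-fold lower in matUPD18, a log2 ratio of -1.31. This rests on 1 probe set, since the other Hk1 probe set had only 3.88 in matUPD18 and 7.44 in patUPD18, under the floor of both arrays. A further probe set, assigned to Hk1 together with 5 other gene symbols, was outside the rule and read 21910 in matUPD18 and 27225 in patUPD18. Hk2, the hexokinase gene of muscle and of many growing tissues, read 1594 in matUPD18 and 1668 in patUPD18, a log2 ratio of -0.07.

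Markers of primitive red cells moved in the direction of Hk1. Of 10 listed markers 9 had a probe set. These markers too were chosen with earlier results known, so they are no independent check on Hk1. By their brightest probe sets all 9 read lower in matUPD18. Of them 6 did so by at least 2-fold, against 1.78% of all measurable genes. Their summed signal was 46292 in matUPD18 and 71322 in patUPD18, the median log2 ratio was -1.35, and none was at 0. The furthest was Ermap, which encodes an erythroid membrane protein, at 319.4 in matUPD18 and 1005 in patUPD18. The nearest to even by brightest probe set was the embryonic globin gene Hbb-y, at 23063 in matUPD18 and 30979 in patUPD18. Of the 2 dimmer measurable probe sets of Hbb-y, 1 differed more, with a log2 ratio of -2.03, and 1 slightly less, at -0.37. Slc4a1, counted among the 6, had a dimmer measurable probe set within 2-fold (log2 ratio -0.83). Among other glycolysis genes with a known role in red cells, Bpgm, which makes 2,3-bisphosphoglycerate, read 3308 in matUPD18 and 3801 in patUPD18, while a dimmer measurable probe set of the gene ran the other way (log2 ratio 0.48). Pklr, the pyruvate kinase gene of liver and red cells, read 248.6 in matUPD18 and 303.6 in patUPD18. Both lay well within 2-fold. The part of red cells in the Hk1 difference was not tested.

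The middle steps of the pathway were even. Pfkl, the liver-type phosphofructokinase gene, whose enzyme makes the committed step, had 3 measurable probe sets. They read 2141 in matUPD18 and 2115 in patUPD18, 1043 in matUPD18 and 844.0 in patUPD18, and 431.5 in matUPD18 and 338.7 in patUPD18. All 3 were higher in matUPD18 under the deposited scaling, by log2 ratios between 0.02 and 0.35, although the brightest turned to -0.01 with quantile normalization. Aldoa, the aldolase gene that acts where the sugar is split, had 5 measurable probe sets with signals from 2388 to 8391 in matUPD18 and from 2008 to 8349 in patUPD18. Their log2 ratios ran from -0.14 to 0.25, with 4 of the 5 above 0, and the brightest had a ratio of 0.01.

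Pgk1 and Ldha, of the energy-yielding and lactate steps, read lower in matUPD18 under the deposited scaling, by amounts usual for bright genes on these arrays. Pgk1 encodes phosphoglycerate kinase, the first enzyme of the pathway to yield ATP. Its 3 probe sets read 26409, 24969 and 18665 in matUPD18 and, in the same order, 34131, 32351 and 24753 in patUPD18. Their log2 ratios lay between -0.41 and -0.37, the tightest agreement among the members with several probe sets. Ldha, the lactate dehydrogenase A gene, read 22404 in matUPD18 and 26823 in patUPD18, a log2 ratio of -0.26. Bright genes in general ran this way. The 463 measurable genes with a mean signal of 10000 or more had a median log2 ratio of -0.28, an interquartile range from -0.40 to -0.11, and 86.6% of them read lower in matUPD18. Pgk1 and Ldha thus lay inside the middle range of bright genes, 0.09 below and 0.02 above their median on the log2 scale. With quantile normalization the ratio was 0.02 for Pgk1 and 0.09 for Ldha, and with loess scaling it was -0.02 for Pgk1 and 0.06 for Ldha. Slc2a1 and Slc2a3, the other bright members, lay above the median of bright genes, Slc2a1 by 0.33 and Slc2a3 by 0.16.

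**Figure D2:**
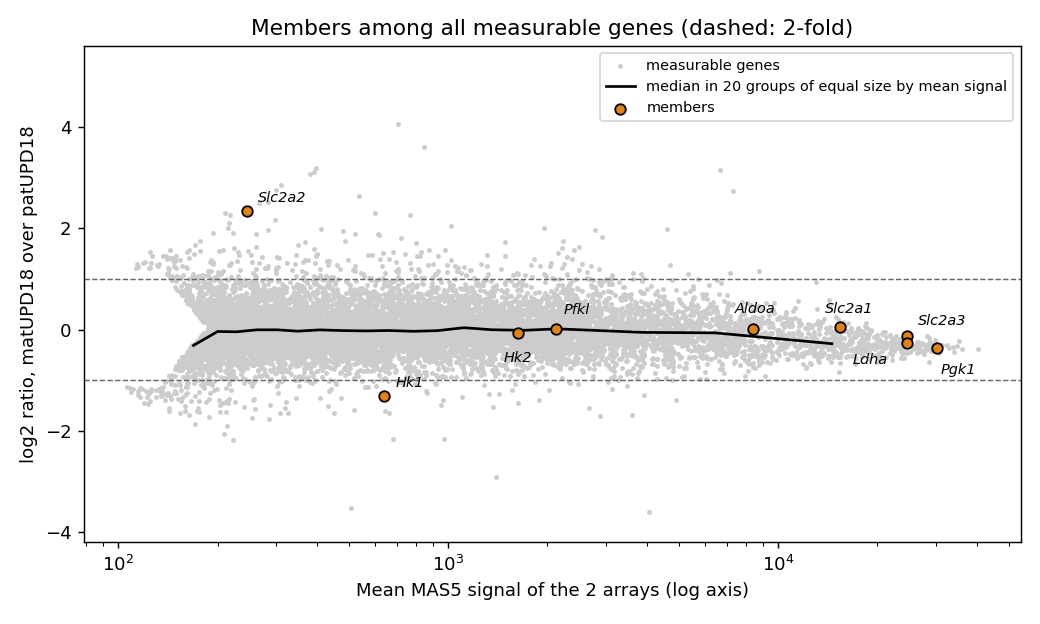
Log2 ratio of matUPD18 over patUPD18 against the mean signal of the 2 arrays (log axis) for 10484 measurable genes in grey, each by its brightest probe set, with the 9 members in orange and the median of 20 groups of equal size by signal as a black line. The black line bends below 0 at high signal, and Pgk1 and Ldha lie to the right of its end at a similar level, while Slc2a2 at 2.33 and Hk1 at -1.31 lie outside the dashed 2-fold lines.

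Pgk1 is also X-linked, and the arrays differed in Xist, a noncoding RNA made from the inactive X. Xist read 1568 in matUPD18 and 128.1 in patUPD18. The Y-linked genes Kdm5d, Uty and Eif2s3y read 526.4, 301.9 and 1392 in matUPD18 and, in the same order, 533.9, 153.3 and 1448 in patUPD18, so all were measurable on at least 1 array. The 365 measurable genes of the X chromosome had a median log2 ratio of 0.03. What the makeup of the embryos by sex adds to the Pgk1 ratio was not tested.

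The other glycolysis genes were mostly within 2-fold as well. Of 19 further glycolysis genes, 15 had a probe set and 11 were measurable. Of these, 10 lay within 2-fold and the median log2 ratio was -0.18, or -0.09 with quantile normalization and with loess scaling. Pgam2, the muscle phosphoglycerate mutase gene, was the exception. It read 56.8 in matUPD18, under the floor, and 219.6 in patUPD18, and was at least 2.61-fold lower in matUPD18. The patUPD18 signal was not far above the measurable limit of 184.9, and Pgam2 had no other measurable probe set. Eno3, the muscle enolase gene, had the highest ratio, with 1331 in matUPD18 and 1183 in patUPD18. The bright enzyme gene Tpi1 (triose phosphate isomerase), at 11911 in matUPD18 and 14717 in patUPD18, had a log2 ratio of -0.31. Pgam1, the other mutase gene, read 14254 in matUPD18 and 18791 in patUPD18, a log2 ratio of -0.40. Pkm, the main pyruvate kinase gene of the embryo, read 5252 in matUPD18 and 5176 in patUPD18. For Gapdh, the array's 3' control had a signal of 18022 in matUPD18 and 22019 in patUPD18, a log2 ratio of -0.29. The 5' control of Gapdh read far lower on both arrays, at 530.8 in matUPD18 and 604.3 in patUPD18, a log2 ratio of -0.19.

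In the 7 pathway lists, which leave out the members, genes past 2-fold were about as frequent as among all genes. The members past 2-fold, Slc2a2 and Hk1, are therefore not in the counts that follow. Over the 7 pathway lists together, 60 of 94 genes were measurable. Of these, 2 were past 2-fold with matUPD18 higher, against the background of 2.70%, and 1 with patUPD18 higher, against 1.78%. Slc16a1, the monocarboxylate transporter gene (MCT1) whose product moves lactate and pyruvate across the membrane, read 3471 in matUPD18 and 1527 in patUPD18, 2.27-fold higher in matUPD18. Vegfa, the endothelial growth factor gene and a hypoxia target, read 959.5 in matUPD18 and 430.0 in patUPD18, 2.23-fold higher in matUPD18. Each rests on 1 measurable probe set.

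Of all measurable genes, 53.9% read lower in matUPD18, which is the background for the direction counts of the lists. In the pyruvate and lactate list 6 of 8 measurable genes read higher in matUPD18 by brightest probe set, and the median log2 ratio was 0.29. Dimmer measurable probe sets of Pdk1, counted among the 6, ran from -0.35 to 0.28, and that of Pdha1, also counted, gave -0.10. Mpc1, of the mitochondrial pyruvate carrier, had the lowest ratio, at 162.8 in matUPD18 and 316.5 in patUPD18. In the pentose phosphate list, whose enzymes draw on the first product of hexokinase to make NADPH and ribose, 5 of 6 read lower in matUPD18 and the median was -0.49. Of these 5, Pgd and Tkt belong to the bright genes, of which 86.6% read lower in matUPD18. Rpia read 430.8 in matUPD18 and 696.4 in patUPD18, while Rpe was higher, at 1111 in matUPD18 and 879.6 in patUPD18. The hypoxia response list had a median of -0.21, with 9 of 13 lower in matUPD18 by brightest probe set. Among these 9, dimmer measurable probe sets of Higd1a ran the other way (0.25 to 0.70), and those of Ero1a ran from -0.39 to 0.55. Apart from Vegfa the furthest gene of the list was Ddit4, at 1234 in matUPD18 and 1976 in patUPD18. Regulators of glycolysis had a median of 0.00. Among them the hypoxia-inducible factor gene Epas1 read 627.3 in matUPD18 and 375.5 in patUPD18, and Tigar, whose product lowers glycolytic flux, read 654.8 in matUPD18 and 901.6 in patUPD18. Gluconeogenesis and glycogen genes had a median of -0.15, from Pck2 at 162.4 in matUPD18 and 284.7 in patUPD18 to Pgm2 at 616.1 in matUPD18 and 488.5 in patUPD18. Only 4 of 10 other sugar transporter genes were measurable, with Slc2a13 the highest in ratio (239.4 in matUPD18 and 146.1 in patUPD18) and Slc5a2 the lowest (173.0 in matUPD18 and 238.6 in patUPD18).

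**Figure D3:**
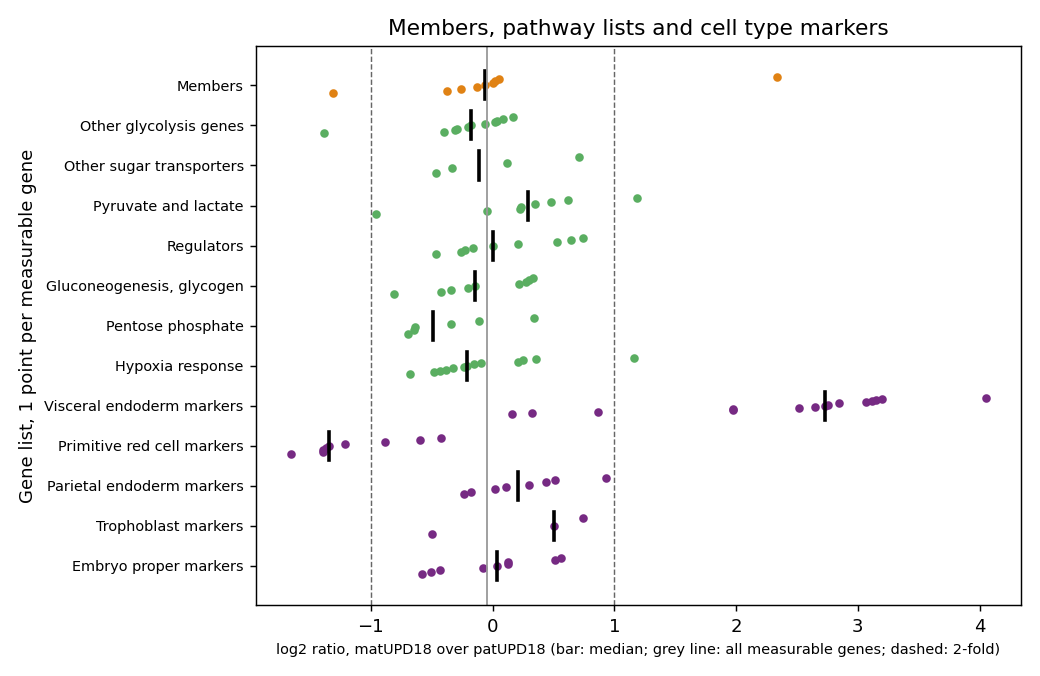
Log2 ratio of matUPD18 over patUPD18 for each measurable gene (points) of the members, 7 pathway lists and 5 cell type marker lists, with list medians as black bars and the median of all measurable genes, -0.04, as a grey line. The members' median, -0.07, is close to the grey line, and the pathway medians run from -0.49 (pentose phosphate) to 0.29 (pyruvate and lactate). The visceral endoderm markers (median 2.73) and primitive red cell markers (median -1.35) lie further out, on the sides on which Slc2a2 and Hk1 lie.

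Markers of other tissues moved less than those of visceral endoderm and red cells. Genes of the embryo proper had a median log2 ratio of 0.04, with all 9 measurable ones within 2-fold, from Meox1 (somite, 1008 in matUPD18 and 1507 in patUPD18) to Otx2 (forebrain, 1038 in matUPD18 and 703.0 in patUPD18). Parietal endoderm markers had a median of 0.21, from Col4a2 (1237 in matUPD18 and 1455 in patUPD18) to Thbd (238.0 in matUPD18 and 124.6 in patUPD18). Only 3 of 10 trophoblast markers were measurable, with a median of 0.50. They ran from Tfap2c (805.7 in matUPD18 and 1136 in patUPD18) to Plac1 (404.3 in matUPD18 and 241.5 in patUPD18). The labels could be checked with Impact, the paternally expressed imprinted gene of chromosome 18, which read 328.4 in matUPD18 and 2466 in patUPD18 by its brightest probe set. A dimmer measurable probe set of Impact gave 0.39 on the log2 scale, the reverse direction.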

How the data were processed

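Total RNA of whole embryos was amplified with a RiboAmp kit and labelled with biotin, per the labels' protocols. Amplification of this kind favours the 3' end of transcripts, so probe sets far from it can read low. The authors deposited a signal intensity for every probe set on either array, and the submitters' processing notes name MAS5 and GCOS (versions unstated). The 2% trimmed mean was 500.003 for matUPD18 and 500.004 for patUPD18, which shows a common scaling target. A change in most transcripts at once would therefore be hidden. No detection calls were used.

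Probe sets were named through the platform annotation and symbols updated through Entrez identifiers with RefSeq (GRCm38.p6). The floor, the measurable limit, the choice of probe set and the 2-fold threshold are given with the results. With 1 array per genotype no test was run and no p-value is given. A spread between probe sets was taken from genes with several measurable ones. Their log2 ratios varied around their gene's mean with a pooled SD of 0.44 (4003 genes, 10206 probe sets), or 0.16 for the 5 such members. It compares probe sets of a gene on the same arrays. Differences between embryos, and array or labelling effects shared by a gene's probe sets, are not included.

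The members, gene lists and motifs were chosen with earlier results of these data known. Every member was named, with the signals of all its probe sets where it had any, given for Aldoa as ranges. Of each pathway list, genes past 2-fold and otherwise the largest ratio in each direction were named, as were the extremes of each marker list. Tpi1, Pgam1, Pkm, Bpgm, Pklr, Gapdh, Pgd, Tkt, Hnf4a, Lrp2 and Apom were named after their values were seen. So were Ttr, Spink1, Slc4a1, Pdk1, Pdha1, Higd1a and Ero1a, and the class of bright genes. The calculation was tested on simulated data. Python 3.11.15, pandas 2.3.3, numpy 2.4.6, statsmodels 0.14.6 and matplotlib 3.10.9 were used.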

Additional observations from a re-analysis of the deposited data

How the results depend on the processing

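Other scalings, floors, probe set rules and measurable limits were tried, and fold thresholds of 1.5 and 3. The Slc2a2 ratio, which rests on 1 probe set, could be moved only by the 3 scalings and 2 floors. It stayed past 2-fold and ran from 1.17, with the floor at the 60th percentile, to 2.48 with no floor. That floor also gave a median of 1.90 for the visceral endoderm markers, against a highest value of 2.78. Both fell because that floor raises the low patUPD18 signals. Only the 3 scalings could move the Hk1 ratio, which ran from -1.36 to -1.27. At a 3-fold threshold the number of members higher in patUPD18 was 0, against 1 at 1.5-fold and 2-fold; the number higher in matUPD18 was 1 at each threshold. Ratios of the other 7 members moved by less than 0.44, the spread between probe sets of a gene over all genes, under every alternative run. Signs nevertheless turned, for Slc2a1 with the median over probe sets (-0.10) and without suffixed probe sets (-0.15), for Slc2a3 and Ldha with quantile and loess scaling, and for Pgk1 and Pfkl with quantile normalization. The spread for the 5 members with several measurable probe sets was smaller, 0.16, and some members moved by more than that. With quantile normalization Pgk1 went from -0.37 to 0.02 and Slc2a3 from -0.13 to 0.22. The median of all measurable genes moved by at most 0.04. No replicate could be left out, since each genotype had 1 array. No paired analysis was possible because each genotype had 1 array and the labels give no replicate number. Signals near the floor, as for Slc2a2 in patUPD18, give only a bound.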
